A study of Mus musculus with 6 samples.

Results

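Stanniocalcins, pappalysins and a pair of HtrA serine proteases were followed in NOR-10, a fibroblast line from mouse skeletal muscle, with and without D-galactose (D-gal). The 6 genes Stc1, Stc2, Pappa, Pappa2, Htra1 and Htra3 were taken by symbol from the 34745 genes of the deposited table, and all 6 passed the filter on low counts that left 13407 genes for testing. RNA-seq covered 3 control libraries, whose cells received PBS, and 3 D-gal libraries, whose cells received 20 mg/mL D-gal over 3 days. All libraries came from the same cell line, and the labels do not state whether the replicates of a group came from separate cultures, so the errors given describe the spread between these libraries, which may be technical. The study compared the groups to find genes that move with D-gal-induced senescence and fibrosis, among them IGFBP5. Apart from that study, IGFBP5 is known as a substrate of both pappalysins and of HTRA1.

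Insulin-like growth factors (IGFs) are held outside the cell by IGF binding proteins, and proteases that cleave the binding proteins release the ligand near its receptor. PAPP-A, encoded by Pappa, cleaves IGFBP4 and IGFBP5, and PAPP-A2, encoded by Pappa2, cleaves IGFBP3 and IGFBP5. The stanniocalcins STC1 and STC2 are secreted glycoproteins that bind the pappalysins and inhibit them. HTRA1 and HTRA3 are secreted serine proteases of the extracellular matrix, which cleave binding proteins as well as matrix proteins and have been described as antagonists of TGF-β family signalling.

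In these fibroblasts the transcripts of both inhibitors were higher under D-gal, those of both HtrA proteases were lower, and those of the pappalysins stayed low with smaller differences. The genes were chosen by their roles and with their fold changes between these same libraries in view, so the values are given as a description. Stc1 was 5.26-fold higher (95% confidence interval 4.38 to 6.32, n = 3 libraries per group) and Stc2 2.39-fold higher (2.11 to 2.72). Htra3 stood at 0.536 of its control level (0.444 to 0.647) and Htra1 at 0.581 (0.400 to 0.843). Differentially expressed genes were called with edgeR's quasi-likelihood test where the adjusted p-value was under 0.05 and the log2 fold change at least 1 or at most -1. By this rule 2 of the 6 genes, Stc1 and Stc2, were called, both higher, beside 4.21% of all genes tested (2.37% higher and 1.83% lower). At the adjusted p-value alone 4 of the 6 passed, Stc1 and Stc2 higher and Htra1 and Htra3 lower, beside 34.8% of all genes (16.9% higher and 17.8% lower). The groups did not overlap in 5 of the 6 genes, beside 49.1% of all genes tested (24.1% higher and 25% lower). The median log2 fold change of the 6 genes was 0.29, and that of all genes tested was 0.0036.

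The proteases carry their active sites in short conserved stretches, which are shown here because they define the enzyme class of each gene. The coding sequences come from GENCODE release M21 on GRCm38, written 5′ to 3′ on the coding strand, and each was searched in frame for the codons of HEXXH, the zinc-binding motif of metalloproteases such as the pappalysins, and of GNSGG, which surrounds the active-site serine of the HtrA proteases. Capitals mark the motif codons.
Pappa, HEXXH from codon 559: atgattCATGAGATTGGGCATagcctg
Pappa2, HEXXH from codon 734: atgatcCATGAGGTGGGACATgtcctg
Htra1, GNSGG from codon 326: aattatGGAAATTCCGGAGGCccgtta
Htra3, GNSGG from codon 309: aattacGGGAACTCAGGAGGAcccctg
Each motif was found 1 time in both members of its pair and 0 times in the other 4 genes, the inhibitors Stc1 and Stc2 included. The Pappa stretch lies in coding exon 4 at chr4:65180914-65180940 on the plus strand, and the Pappa2 stretch in exon 4 at chr1:158857348-158857374 on the minus strand. The HtrA stretches are split by the intron between exons 4 and 5, at chr7:130979493-130979975 on the plus strand for Htra1 and at chr5:35665423-35666052 on the minus strand for Htra3.

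The stanniocalcins have no such catalytic motif, and their coding sequences are shown at an exact run that both contain, with that run in capitals, because it bears on whether reads of one paralog could be counted on the other.
Stc1: tgattctgtgAGCCCCAGAaaatcccgggt
Stc2: ctcccacggcAGCCCCAGAgcatcagcccc
The longest exact run shared by the Stc1 and Stc2 coding sequences was 9 bases, and 3 runs had that length. The run shown lies in coding exon 1 of Stc1 (chr14:69029461-69029490, plus strand) and in coding exon 4 of Stc2 (chr11:31360353-31360382, minus strand). For Pappa with Pappa2 and for Htra1 with Htra3 the longest shared run was 17 bases. Identity over the aligned coding bases was 60.2% between Stc1 and Stc2, 62.8% between Pappa and Pappa2, and 64.5% between Htra1 and Htra3. None of the 6 genes shared a word of 31 bases with another of them. Outside the 6 genes, 3.08% of the Pappa2 words and 0.10% of the Pappa words occurred in other annotated transcripts, and 0% for the remaining 4 genes. Words were compared in the direction of transcription only. Sequence shared with a gene on the other strand, as where an antisense gene overlaps exons of Stc1, is not counted here.

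The loci differ in size. Stc1 (ENSMUSG00000014813) spans chr14:69029238-69041804 and Stc2 (ENSMUSG00000020303) spans chr11:31357307-31370074, each with 4 exons in its longest coding transcript, which encodes 741 and 888 coding bases. Pappa (ENSMUSG00000028370, chr4:65124174-65357509) and Pappa2 (ENSMUSG00000073530, chr1:158711727-158980490) each have 22 exons in the longest coding transcript, with 4872 and 5367 coding bases. Htra1 (ENSMUSG00000006205, chr7:130936111-130985660) and Htra3 (ENSMUSG00000029096, chr5:35652023-35679782) have 9 exons each, with 1440 and 1377 coding bases. The deposited table gives the same start and end for 5 of the genes and other ends for Stc1. An antisense gene, Gm41192, overlaps exons of Stc1 on the other strand and has no row of its own in the deposited table. The sources used here do not say whether counting used the strand, so reads from that gene cannot be told apart from Stc1. The lincRNA 1600012P17Rik overlaps Pappa2 exons on the same strand and had 0 counts over the 6 libraries. Fgfr2 overlaps the Htra1 locus on the other strand, without overlap of exons.

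Total counts ranged from 13759108 to 20830349 per library, and all control libraries were deeper than all D-gal libraries. The share of counts on mitochondrial genes also separated the groups, at 4.26% to 4.44% in control and 4.87% to 4.98% in D-gal libraries. Of the 8 fibroblast markers listed, 7 were tested, with a summed level of 877 to 893 FPKM in the control group and 594 to 607 FPKM in the D-gal group. Col1a1 was the largest part of that sum, with means of 333 FPKM in control and 209 under D-gal. In the fibroblast list 5 markers were lower and 1, Pdgfrb (0.19, standard error 0.03), higher at the adjusted p-value. Beside that, 17.8% of all genes tested were lower and 16.9% higher. Pdgfra (-0.08, standard error 0.03) did not pass, and Lum was at 0 counts in 5 libraries. Among the 5 lower markers, 1 also met the fold criterion and was called, Dcn (log2 fold change -1.42, standard error 0.16). Markers of other cell types were low, some of them at 0. Pax7, Myf5 and Myod1 (myogenic), Cd3e (leukocyte), Adipoq (adipocyte) and Epcam (epithelial) had 0 counts in every library, and summed levels were at most 2.76 FPKM for the 8 myogenic, 0.626 for the 4 endothelial, 4.22 for the 4 leukocyte, 0.00755 for the 3 adipocyte, 1.51 for the 3 epithelial and 0.765 for the 3 Schwann cell markers. Other markers on these lists were expressed, and 2 were called lower under D-gal, beside 1.83% of all genes tested. Cdh1, the epithelial cadherin, had 140 to 142 counts in the control libraries and 26 to 37 in the D-gal libraries (log2 fold change -1.79, standard error 0.18), and Tek, an endothelial receptor, had 28 to 45 and 11 to 15 counts (-1.02, standard error 0.30). Des, which encodes the muscle filament desmin, was lower at the adjusted p-value (-0.78, standard error 0.17), and the macrophage marker Cd68 did not pass (-0.61, standard error 0.36), with 167 counts in control replicate 1 and 48 to 91 in the other libraries. The part of these markers, of depth and of the mitochondrial share in the values of the 6 genes was not tested. In bulk samples, fewer expressing cells and less RNA per cell cannot be told apart.

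Stc1, first described in fish as a hormone of calcium and phosphate balance, was the member with the largest difference. Normalized counts, which are counts scaled to a common library size, stood at 339, 330.5 and 373 for the control replicates. They were 1517, 2047 and 1912 in the D-gal libraries. The groups were far apart, with the lowest D-gal library above every control library, and D-gal replicate 1 was the lowest of its group. Means were 347 ± 22.3 and 1826 ± 275.5 (SD, n = 3), and the log2 fold change was 2.40 (standard error 0.11). This rise was number 35 in size among the 318 genes called higher. Reads of the antisense gene Gm41192, if they were counted on Stc1, would be part of these values. The spread among the D-gal libraries was 15.1% of their mean, against 2.50% from counting error alone, so the D-gal libraries differed from each other by more than counting would give.

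Stc2, the paralog that forms a covalent complex with PAPP-A, moved in the same direction by a smaller amount. Control libraries had 159.5, 161 and 157.5 normalized counts of Stc2, and D-gal libraries had 364, 382 and 399. The control values were nearly identical and the groups were well separated. The means of 159 ± 1.61 and 381.5 ± 17.6 (SD, n = 3) gave a log2 fold change of 1.26 (standard error 0.08), number 197 among the genes called higher. The control spread of 1.01% was below the 7.48% that counting error gives at 156 to 197 counts per library, so that SD understates the error of a single library.

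Pappa was expressed at a low level. Control libraries had 80.2, 74.2 and 65.6 normalized counts, against 84.2, 104.8 and 101 under D-gal. Every D-gal value lay above every control value, but D-gal replicate 1 exceeded control replicate 1 by little. Means were 73.4 ± 7.31 and 96.7 ± 11.0 (SD, n = 3), and the log2 fold change of 0.40 (standard error 0.15, 95% interval 0.06 to 0.74) did not pass the adjusted p-value. The spread in each group, 9.96% and 11.4%, was close to the counting error of 11.0% and 10.8%.

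Pappa2 had the fewest reads of the 6 genes in the control group, 34 to 55 counts in a library, and 29 to 47 counts in the D-gal libraries. Normalized, these were 34.9, 44.9 and 34.3 in control replicates and 43.8, 51.3 and 34.9 in D-gal replicates, so the groups overlapped. The log2 fold change was 0.19 (standard error 0.22), with a 95% interval from -0.31 to 0.69. That interval includes 0, and the difference did not pass the adjusted p-value.

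Htra3, whose product degrades matrix proteoglycans, was lower in the D-gal group. The control replicates had 435, 454.5 and 484 normalized counts and the D-gal replicates 281, 203 and 252. The control libraries lay close together, and the highest D-gal library was well below the lowest control library. Means were 458 ± 24.6 and 245 ± 39.1 (SD, n = 3), and the log2 fold change was -0.90 (standard error 0.12). The difference passed the adjusted p-value but not the fold criterion. Without D-gal replicate 1, the highest of its group, it was -1.01 and Htra3 joined the genes called.

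Htra1, the most studied of the secreted HtrA proteases, also had lower values under D-gal but few reads, between 25 and 80 counts per library. After normalization these were 49.7, 60.4 and 80.8 for the control replicates and 39.3, 40.4 and 30.1 for the D-gal replicates. The groups did not overlap, but the control libraries differed 1.63-fold between lowest and highest, the widest range in any group of the 6 genes. The log2 fold change was -0.78 (standard error 0.23), which passed the adjusted p-value in the fit of all libraries. It no longer passed with any 1 of control replicates 2 and 3 or D-gal replicates 1, 2 and 3 left out, where it lay between -0.86 and -0.59, nor in DESeq2, where it was -0.79.

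**Figure D1:**
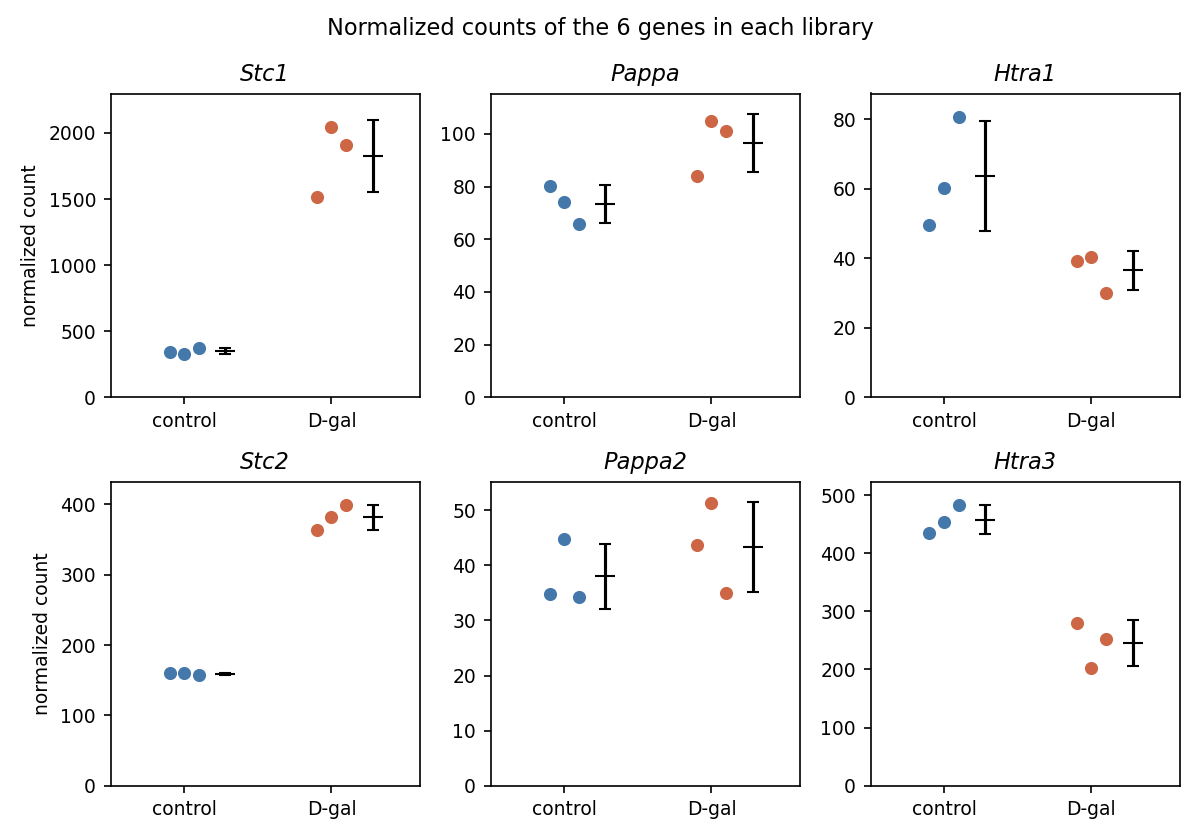
Normalized count (y axis, from 0) of each gene in the 3 control (blue) and 3 D-gal (orange) libraries, 1 point per library, with the mean and SD of each group as a black mark and bars. Stc1 and Stc2 stand higher in all D-gal libraries, Htra1 and Htra3 lower, and Pappa2 overlaps between groups.

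Levels of different genes were compared per length, as the deposited FPKM (reads scaled by gene length and by the library's total). In the control group the order from high to low was Stc1 at 5.46 ± 0.34, Htra3 at 4.10 ± 0.21, Stc2 at 0.997 ± 0.012, Htra1 at 0.889 ± 0.22, Pappa at 0.391 ± 0.040 and Pappa2 at 0.199 ± 0.031 FPKM (mean ± SD, n = 3). Only the neighbours Stc2 and Htra1 overlapped in that order. In the D-gal group Stc1 led with 29.4 ± 4.53 FPKM, followed by Stc2 at 2.45 ± 0.12, Htra3 at 2.25 ± 0.35, Pappa at 0.529 ± 0.062, Htra1 at 0.524 ± 0.080 and Pappa2 at 0.233 ± 0.044 FPKM. Stc2 overlapped with Htra3 there, and Pappa with Htra1. The order and these overlaps depend on the gene length used. Worked back from counts and library totals, the deposited FPKM rest on 3743 bases for Stc1, 9399 for Stc2 and 6562 for Htra3. Their merged annotated exons cover 4197, 5175 and 4439 bases. With merged exons (TPM) Htra3 stood above Stc1 in the control group, at 20.4 ± 1.13 against 16.3 ± 1.03 TPM. The overlaps named above were not seen with them. Stc2 stood above Htra1 in control (6.01 to 6.18 against 3.39 to 5.54 TPM). Under D-gal Stc2 stood above Htra3 (13.97 to 15.47 against 9.22 to 12.56 TPM) and Htra1 above Pappa (2.10 to 2.83 against 1.52 to 1.92).

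Within each library the summed level of the inhibitors was set against that of the pappalysins. The ratio of Stc1 + Stc2 to Pappa + Pappa2 in FPKM was 10.4, 9.82 and 12.9 for the control replicates and 38.5, 41.7 and 45.0 for the D-gal replicates. Inhibitor transcripts thus exceeded pappalysin transcripts in every library, and the ratio was higher in all D-gal libraries. Its group means were 11.0 ± 1.65 and 41.7 ± 3.26 (SD, n = 3). Stc1 carried most of it, since Stc1 was 83.8% to 85.6% of the summed stanniocalcin FPKM in the control group and 91.3% to 93.1% under D-gal. With Stc2 alone the ratio was 1.70 ± 0.14 and 3.23 ± 0.30. These shares and the ratio with Stc2 alone depend on the gene length used. With merged exons, Stc1 and Stc2 stood at 16.35 and 6.08 TPM in control and at 87.2 and 14.8 TPM under D-gal, so Stc2 weighed more. Pappa made up 62.7% to 70.1% of the pappalysin FPKM in control and 66.2% to 74.7% in D-gal libraries, ranges that overlapped. The ratio of Htra1 to Htra3 was 0.178, 0.207 and 0.260 in control and 0.218, 0.310 and 0.186 in D-gal libraries, with no separation of the groups. These are ratios of transcripts, and neither protein nor protease activity was measured.

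**Figure D2:**
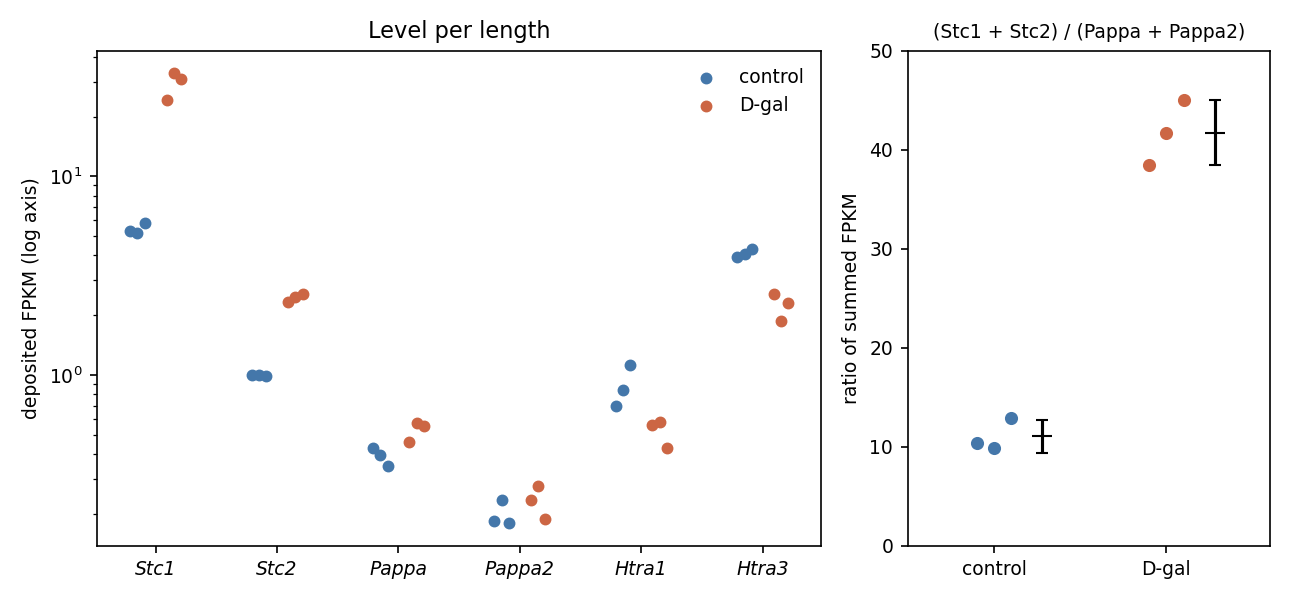
Left, deposited FPKM on a log axis for each gene, 1 point per library, control in blue and D-gal in orange. Right, the ratio of summed Stc1 and Stc2 to summed Pappa and Pappa2 FPKM per library (y axis from 0), with mean and SD in black, which lies between 9.82 and 12.9 in control and between 38.5 and 45.0 in D-gal libraries.

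The IGF binding proteins, which include substrates of these proteases, moved in different directions. The list held 8 genes, Igfbp1 to Igfbp7 and Igfals (the acid-labile subunit), and was not limited to substrates. Of these, 6 were tested, with a median log2 fold change of -0.70. At the adjusted p-value 2 were higher and 2 lower, beside 16.9% of all genes higher and 17.8% lower. Igfbp5, cleaved by both pappalysins and by HTRA1, rose most of them, by 3.80 on the log2 scale (standard error 0.15). Igfbp3, a PAPP-A2 substrate, fell by 1.49 on the log2 scale (standard error 0.22, edgeR adjusted p = 0.00143). Igfbp4, the classical PAPP-A substrate and named here after its values were seen, had 3528, 6418 and 3453 normalized counts in control replicates and 2159, 2092 and 3972 in D-gal replicates. Its groups overlapped, with 1 high library in each, and its log2 fold change of -0.71 (standard error 0.31) did not pass the test (edgeR adjusted p = 0.114).

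**Figure D3:**
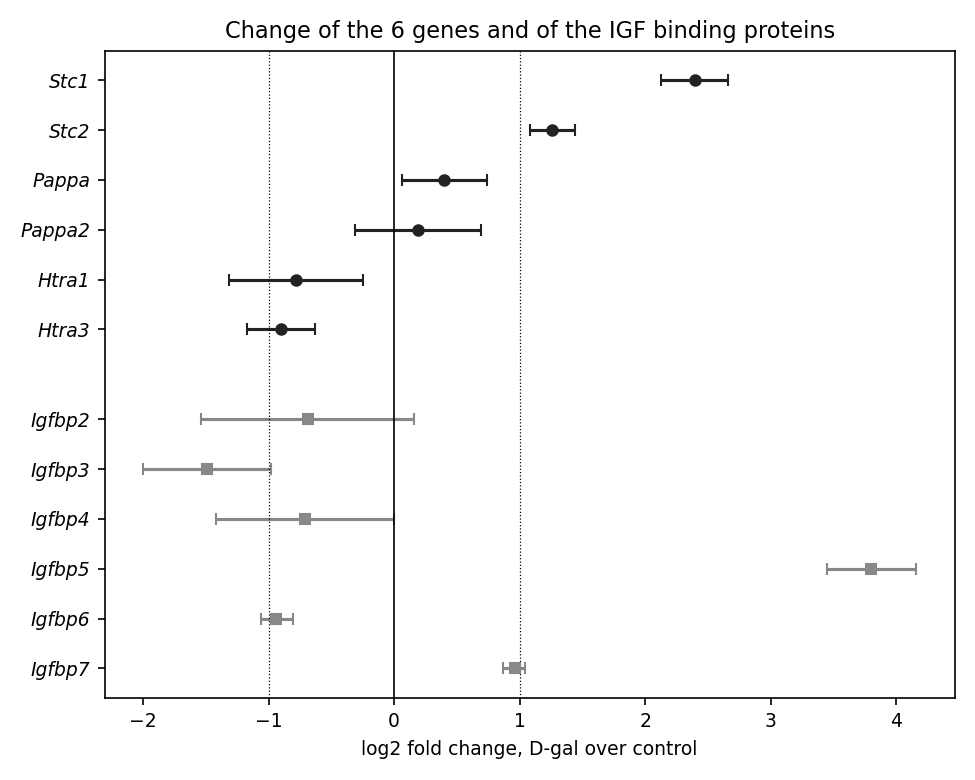
Log2 fold change of D-gal over control (x axis) with its 95% confidence interval for the 6 genes (black circles) and for the 6 IGF binding proteins tested (grey squares), with dotted lines at the fold criterion of 1 and -1. Igfbp5 and Stc1 lie farthest to the right, the intervals of Pappa2 and Igfbp2 include 0, and that of Igfbp4 reaches it.

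Ligands and receptors of the pathway changed less. Igf1 was higher by 0.34 on the log2 scale (standard error 0.04, edgeR adjusted p = 6.71e-04), while Igf2 ranged from 1244 to 4742 normalized counts among control libraries and from 960 to 5387 among D-gal libraries and did not pass (0.13, standard error 0.62). Of 3 receptors tested, Igf1r was higher (0.23, standard error 0.04) and the other two, Igf2r (-0.18, standard error 0.04) and Insr, were lower at the adjusted p-value. Of 3 adaptors tested, Irs1 (0.32) was higher and Shc1 (-0.14) lower at the adjusted p-value, and Irs2 did not pass. No gene of these lists met the fold criterion. Over all genes tested, 16.9% were higher and 17.8% lower at the adjusted p-value.

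Among other proteases reported to cleave IGF binding proteins, 13 of 17 listed were tested. At the adjusted p-value 7 were lower, 2 higher and 4 did not pass, with a median log2 fold change of -0.17, beside 17.8% of all genes lower and 16.9% higher. The 2 that also met the fold criterion were both lower, beside 1.83% of all genes tested called lower and 2.37% called higher. Adam12, a membrane-anchored metalloprotease, went from 515 ± 36.8 to 222 ± 22.2 normalized counts (SD, n = 3, log2 fold change -1.21, standard error 0.10), and Mmp9, a gelatinase, from 44.3 ± 3.88 to 21.8 ± 7.71 (-1.03, standard error 0.28). Mmp9 had few reads, 12 to 23 counts in the D-gal libraries, and a 95% interval from -1.67 to -0.39. Htra2, the mitochondrial paralog, did not pass (0.05, standard error 0.06), and Htra4 was under the count filter. Prg2, which encodes another inhibitor of PAPP-A, was also under the filter. Among 9 tested extracellular protease inhibitors, 2 were higher, 4 lower and 3 did not pass, with the largest differences in Timp1 (-0.85, standard error 0.08) and Serpine2 (-0.58, standard error 0.03). No inhibitor on that list met the fold criterion.

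Stc2 is known as a target of ATF4 in the unfolded protein and integrated stress responses, and Stc1 has been described as a gene that responds to hypoxia. Of 12 tested genes of ATF4 and the unfolded protein response, 1 was higher and 2 lower at the adjusted p-value. The other 9 did not pass, and the median log2 fold change was 0.03. The higher gene was Ddit4 (0.37, standard error 0.06), and Atf4 itself did not pass (0.08, standard error 0.03). The largest differences were falls, of Trib3 (-0.84, standard error 0.12) and Ddit3 (-0.57, standard error 0.08). Of 11 tested hypoxia genes, 4 were higher, 2 lower and 5 did not pass, with a median of 0.01. Both counts stand beside 16.9% of all genes tested higher and 17.8% lower at the adjusted p-value. The hypoxia genes that met the fold criterion had opposite signs, Adm, which encodes adrenomedullin, at 1.15 (standard error 0.05) and Ndrg1 at -1.37 (standard error 0.09). The part of either response in the stanniocalcin levels was not tested.

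Genes whose log2 normalized counts followed the members most closely over the 6 libraries were sought among 10409 genes with a mean of at least 100 counts. For Stc1 these were Antxr2, a receptor for collagen VI and anthrax toxin (Pearson r = 0.9997, log2 fold change 0.93), and Hif1a, the oxygen-regulated subunit of hypoxia-inducible factor (r = 0.9996, 0.97). For Pappa they were Pgm2l1 (r = 0.9963, 0.22) and Tmem184b (r = 0.9949, 0.18). For Htra3 they were Appl1 (r = 0.9989, -0.32) and Kdelr3 (r = 0.9984, -0.33). The points share the 2 groups, so these correlations mostly reflect the difference between them.

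Promoter windows of 300 bases, 250 before to 50 after the start, were matched in RefSeq (GRCm38.p6) for Stc2, Pappa2, Htra1 and Htra3. No entry was matched for Stc1 and Pappa. The Pappa2 window (chr1:158958126-158958425, minus strand) rests on a start that lies inside the GENCODE locus given above, downstream of its 5′ end, and so does not cover that end. The windows of Stc2 and Htra1, which moved in opposite directions, each held 28 CpG dinucleotides, those of Htra3 and Pappa2 held 3 and 2, and the median over all 32851 windows was 7 (quartiles 3 and 20). TGATGCA, searched on both strands as part of an ATF4-type element, was found in the Htra3 window only, starting 53 bases before the start, and in 3.15% of all windows. ACGTG, the core of the hypoxia response element, was in 19.6% of all windows and in none of the 4. The Htra3 match (chr5:35679816-35679844, minus strand) is shown with the motif in capitals.
Htra3: gcccggtggagTGATGCAgagcaggaggg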

How the data were processed

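RNA-seq counts of 3 control and 3 D-gal libraries of NOR-10 cells were analysed. The table deposited by the authors gives a raw read count per gene and library, and an FPKM value that the authors computed from counts, gene length and library total. Per the study's methods the authors used FastQC for read quality and Trimmomatic for trimming, and the submitters' processing notes name HISAT2 (version 2.0.4). The counting tool, strand setting and genome build are not given in the sources used here, and positions of 5 of the 6 genes equal those of GENCODE M21 (GRCm38). The labels and the methods name different library kits, for RNA-seq and for small RNA respectively.

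Counts were tested with edgeR (version 4.0.16, R 4.3.3), using TMM, filterByExpr, the quasi-likelihood test and Benjamini-Hochberg adjustment over 13407 genes. Genes were called, as in the methods, where the adjusted p-value was under 0.05 and the log2 fold change at least 1 or at most -1. TMM factors lay between 0.9855 and 1.015. Normalized counts are counts over the TMM-scaled library size, times its mean. Standard errors are the log2 fold change over the square root of F, and 95% intervals use the test's degrees of freedom. All pairs of replicates differed beyond counting error (chi-square over degrees of freedom, 6.00 to 9.42). The fits, and not the counting of reads, were tried on simulated counts in which all genes had the same variability beyond counting error.

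Alternatives were DESeq2 (version 1.42.0), RLE size factors, no filter, a minimum of 10 counts per library, a replicate block, each library left out, no fold criterion, and limma (version 3.58.1) on log2(FPKM + 1) and log2(FPKM + 0.1), which understate changes of genes with low values. TPM were computed with merged exon lengths for 34344 genes holding at least 99.95% of the counts of each library. Protein sequences were not used here, so motifs were searched in coding bases. The 6 genes, the gene lists and the naming rule (all called genes of a list, or else its 2 largest differences, and the 2 closest patterns for the leading gene of each role) were chosen with earlier results of these data known.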

Additional observations from a re-analysis of the deposited data

How the results depend on the processing

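Stc1, Stc2 and Htra3 kept their direction and their side of the adjusted p-value in all 13 other fits, and so did Pappa and Pappa2, which passed in none. Left out 1 library at a time, the log2 fold change ran from 2.31 to 2.51 for Stc1, 1.23 to 1.29 for Stc2, 0.32 to 0.49 for Pappa, 0.05 to 0.33 for Pappa2, -1.01 to -0.78 for Htra3 and -0.93 to -0.59 for Htra1, and the number of the 6 genes called was 2 or 3, with 491 to 572 genes called in all. Htra1 kept its sign but no longer passed the adjusted p-value in 5 of these 6 fits, in DESeq2 (-0.79, adjusted p = 0.0503) and with the replicate block (-0.77, adjusted p = 0.0735), and the cause was not tested. No sign of pairing by replicate number was seen. Deviations from the group means correlated by -0.0133, -0.00403 and 0.0277 for equal numbers, and not every library correlated best with its own number. Such correlations cannot exclude that libraries of equal number came from matched cultures. The block gave 530 genes called against 564. Limma on log2(FPKM + 1) called 120 genes and 1 of the 6, Stc1, with Stc2 at 0.79 on that scale, because the pseudocount shrinks changes of low values. Without the fold criterion 4661 genes and 4 of the 6 were called. With merged exon lengths, Stc1 took place 2 and Htra3 place 1 in the control order, and Htra1 place 4 and Pappa place 5 in the D-gal order. Without Stc1, the ratio of stanniocalcin to pappalysin FPKM was 1.70 in control and 3.23 in D-gal libraries. It was 9.33 in control without Stc2, 33.0 and 140.0 without Pappa, and 16.7 and 60.1 without Pappa2. The ratio was higher in the D-gal group throughout. Depth limits Pappa2, Htra1 and Pappa most, with under 100 counts in every library.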
